A study of Apostichopus japonicus with 12 samples.

Results

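The comparison described here sets the 6 libraries made from respiratory tree kept in low oxygen against the 6 libraries made from respiratory tree that was not, with temperature held in the model. It takes in 12 of the 12 libraries of the series. The animal is the sea cucumber Apostichopus japonicus, and the tissue is the respiratory tree, the branched organ off the hind gut that the animal floods with sea water to take up oxygen. The low-oxygen side holds 3 hypoxic libraries (2 mg/L dissolved oxygen) and 3 libraries under both stresses (26 °C and 2 mg/L). The other side holds 3 control libraries and 3 thermal libraries (26 °C). The labels give neither the temperature nor the oxygen level of the controls. The temperature of the hypoxic group and the oxygen level of the thermal group are not given either, and both were taken to be those of the controls. The labels do not give a strain, an age, a sex or the length of exposure. Whether a replicate was an animal of its own is not stated. The p-values set differences against the spread of these libraries, which may be technical, so they need not carry over to other animals.

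Animal cells sense oxygen through hydroxylase enzymes that need it as a substrate. When oxygen is plentiful these enzymes mark the hypoxia-inducible factor for destruction, and when it is short the factor builds up and switches on genes for anaerobic glycolysis and oxygen transport. Warm water holds less oxygen and raises an animal's demand for it, so for a gill-like organ heat and low oxygen are linked stresses, and averaging over temperature asks what low oxygen changes in either setting. The deposited table lists features under AJAP and MSTRG identifiers without gene names, and a search of the RefSeq genes of assembly ASM3797524v1 matched 0 of its 59494 identifiers. Features are therefore given by identifier. No sequence, gene function or list of pathway genes could be attached to them, and the label of the tissue could not be checked against marker genes.

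The libraries held between 20384391 and 28424597 reads over the listed features. The library labelled thermal replicate 2 stood apart from its label at the features that changed. When it was left out, 651 features passed the test, and it lay on the side of its own label, nearer the level without low oxygen, at 217 of them (33.3%), against 47.5% of all features tested. Correlations set it apart less clearly. Its mean Pearson r across the log2 values of all features tested, which are not independent replicates, was 0.866 with the 6 low-oxygen libraries and 0.849 with its own side. For thermal replicate 1 these were 0.855 and 0.852, and control replicate 3, like both of these, had a low-oxygen library as its closest. The counts of calls and the low-oxygen change of each named feature are also given without thermal replicate 2.

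Low oxygen raised 142 features (0.304% of the 46763 tested) and lowered 140 (0.299%). Together 282 features, or 0.603%, had an adjusted p under 0.05 in limma. A feature was tested if it had at least 0.5 FPKM (fragments per kilobase of feature, scaled to the depth of the library) in at least 3 libraries, and changes are differences of log2(FPKM + 0.5), which understate the change of features with low values. The median size of a called change was 1.53 on that scale, and the changes ran from 0.75 to 4.37. At least a 2-fold change was fitted to 249 of the called features, at least a 4-fold change to 74 and at least an 8-fold change to 10. Over all features tested the median size was 0.33, and 3633, 246 and 25 features reached these 3 sizes, most of them not called. Fewer cells of a type and less RNA per cell cannot be told apart in whole tissue.

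Among the called features the raised ones were the more abundant. Their median level over the 12 libraries was 37.2 FPKM, against 14.0 FPKM for the lowered ones and 2.80 FPKM for all features tested. The raised features together made up 1.38% to 2.03% of the FPKM of each low-oxygen library and 0.425% to 0.879% of that of each other library. The lowered features made up 0.264% to 0.322% in low oxygen and 0.587% to 0.832% elsewhere. The 2 ranges did not overlap for either set, which the choice of the features fixes. The highest value of the raised set outside low oxygen, 0.879%, and the lowest value of the lowered set there, 0.587%, were those of thermal replicate 2.

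**Figure D1:**
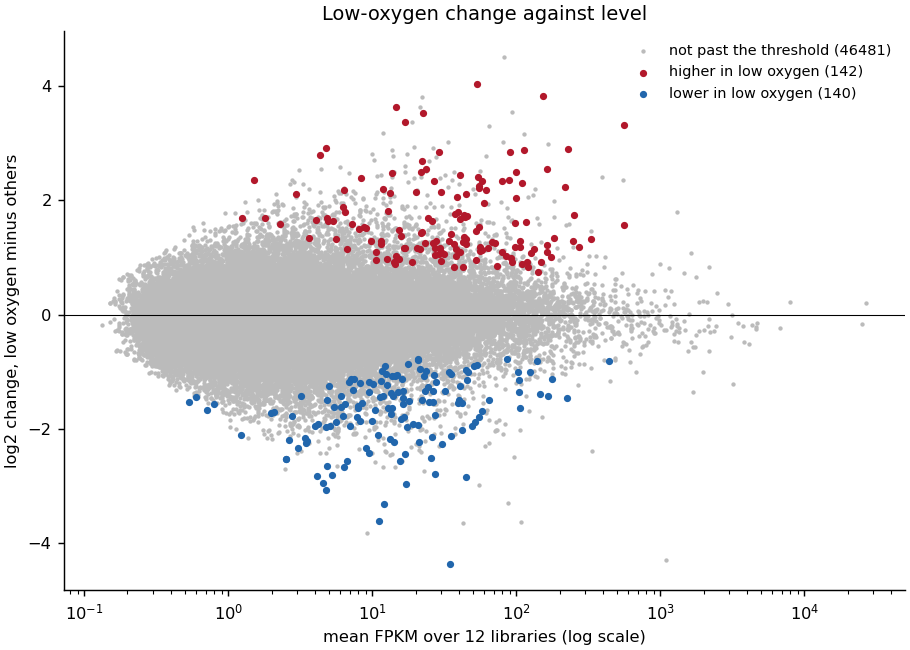
Low-oxygen change (vertical axis, log2 scale, low oxygen minus others) of each of the 46763 features tested against its mean FPKM over the 12 libraries (horizontal axis, log scale). The 142 raised and 140 lowered features are coloured, and the called features lie mostly above 3 FPKM, with raised ones prevailing above 30 FPKM.

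Calls became more frequent with level. Of the 11700 features with a mean under 1 FPKM, 4 were called (0.0342%), and of the 1109 at 100 FPKM or more, 37 were called (3.34%). Between 3 and 10 FPKM (11465 tested) the calls were 18 higher and 40 lower, and between 10 and 30 FPKM (6837 tested) 41 higher and 55 lower. Between 30 and 100 FPKM (3209 tested) they were 52 higher and 23 lower, and from 100 FPKM upward 26 higher and 11 lower. Among the calls, lowered features were thus more numerous from 3 to 30 FPKM and raised ones from 30 FPKM upward. Over all 46763 features tested, called or not, 19983 had a higher and 26780 a lower fitted level in low oxygen. That split was not taken by level, nor was the split of calls by level repeated with other scalings. The 2 kinds of identifier differed in their share of calls, with 215 of 22691 AJAP features (0.948%) and 67 of 24072 MSTRG features (0.278%). They also differed in level, at a median of 6.37 FPKM for AJAP and 1.51 FPKM for MSTRG. At like levels the shares lay closer between 3 and 100 FPKM. They were 0.576% and 0.417% between 3 and 10 FPKM, 1.45% and 1.26% between 10 and 30 FPKM, and 2.33% and 2.35% between 30 and 100 FPKM. From 100 FPKM upward they were 3.5% for AJAP and 1.85% for MSTRG, the latter 2 of 108 features. Of the called AJAP features 116 were higher and 99 lower, and of the called MSTRG features 26 were higher and 41 lower.

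Among called features of at least 5 FPKM on either side, 4 stood out by the size of a change that did not overlap within either temperature, a pair of rises and a pair of falls. AJAP19978 stood at 20.4, 6.08 and 15.9 FPKM in the controls and at 14.6, 21.2 and 39.2 FPKM in heat alone. In low oxygen it stood at 399, 611 and 199.9 FPKM in the hypoxic libraries and 194, 175 and 146 FPKM under both stresses. All 6 low-oxygen libraries lay above all 6 others, with a gap between 39.2 and 146 FPKM, and hypoxic replicate 2 was highest. Its log2 values rose by 3.83 (SE 0.42, adjusted p = 0.0066), and without thermal replicate 2 it was 3.91 (SE 0.46, adjusted p = 0.0035).

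MSTRG.81280 was at 0.708, 1.21 and 0.439 FPKM in the control libraries and at 10.4, 11.3 and 7.10 FPKM in the hypoxic ones. In warm water it was at 0.845, 15.9 and 0 FPKM in the thermal libraries and at 44.3, 47.3 and 35.9 FPKM under both stresses. It was higher in low oxygen at each temperature, but thermal replicate 2 lay above all 3 hypoxic libraries, so the 6 and 6 libraries overlapped. The rise was 3.63 (SE 0.64, adjusted p = 0.028), it was 4.20 (SE 0.48, adjusted p = 0.0035) without thermal replicate 2, and in limma's voom, a test on read counts, it missed the threshold (adjusted p = 0.051). It passed in 4 of 12 fits with a library left out.

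AJAP07200 had a log2 change of -4.37 with low oxygen (SE 0.59, adjusted p = 0.012), the largest in size among the called features. It held 103, 24.6 and 107 FPKM in the controls and 75.9, 16.3 and 64.8 FPKM in heat alone. Its levels were 5.60, 0.862 and 12.5 FPKM in the hypoxic libraries and 0.572, 0.624 and 1.82 FPKM under both stresses. The sides did not overlap, although 16.3 FPKM in thermal replicate 2 came near 12.5 FPKM in hypoxic replicate 3, and voom left it just outside the threshold (adjusted p = 0.051). MSTRG.128783 changed by -3.61 in log2 units (SE 0.56, adjusted p = 0.021). It ranged from 5.56 to 38.9 FPKM in the 6 libraries without low oxygen and from 0 to 4.42 FPKM in the 6 with it, and held 0 reads in replicates 1 and 3 of both stresses. Its sides did not overlap either, yet voom gave an adjusted p of 0.10, and it passed in 10 of 12 fits with a library left out. Without thermal replicate 2 the log2 change was -4.61 for AJAP07200 (adjusted p = 0.0046) and -3.72 for MSTRG.128783 (adjusted p = 0.013).

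**Figure D2:**
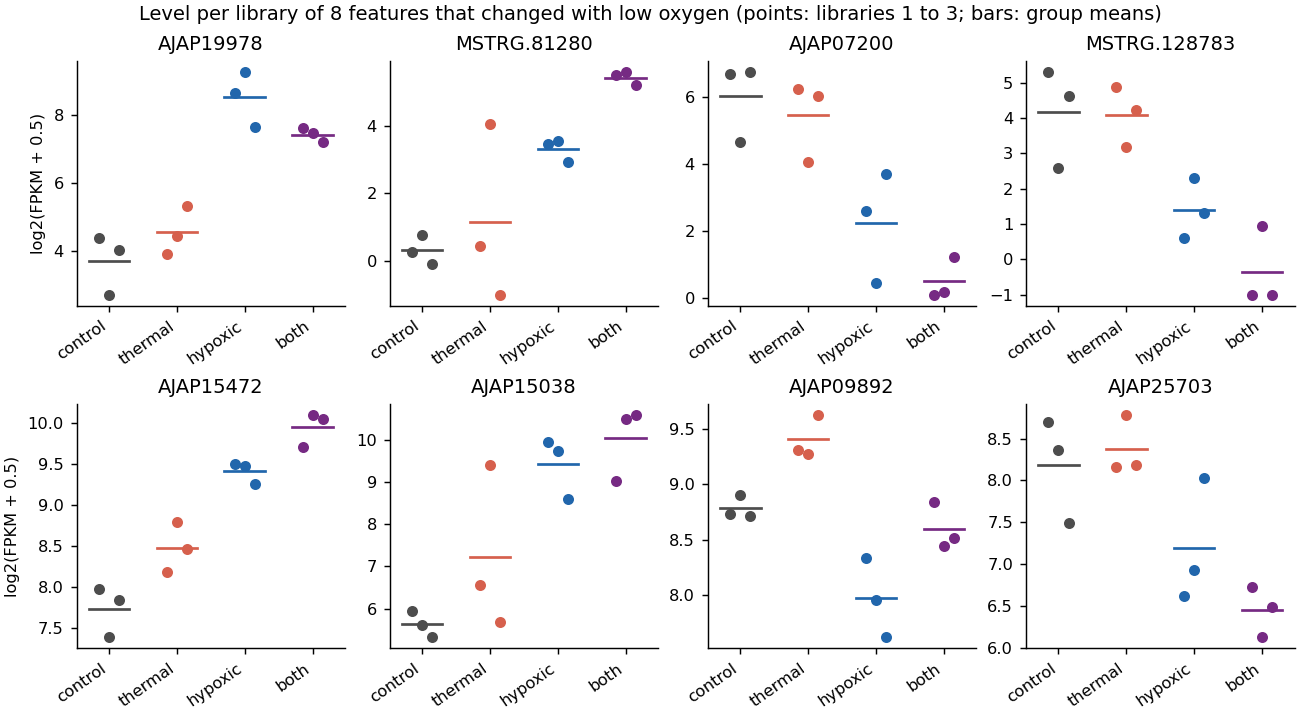
Level of 8 features in each of the 12 libraries, as log2(FPKM + 0.5), by group, with points for libraries and bars for group means. AJAP19978 and AJAP15472 lie higher in all 6 low-oxygen libraries than in the 6 others, and thermal replicate 2, the middle thermal point, lies near the low-oxygen libraries for MSTRG.81280 and AJAP15038.

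The most abundant called features, 2 raised and 2 lowered, had mean levels from 224 to 563 FPKM. Their log2 changes were 1.58 and 3.32 for the raised ones and -0.81 and -1.46 for the lowered ones. AJAP15472 averaged 563 FPKM over the 12 libraries, rank 135 of the features tested. It was at 249.9, 167 and 228 FPKM in the controls, 289, 442 and 352 FPKM in heat alone, 722, 711 and 611 FPKM in the hypoxic libraries and 836, 1093 and 1053 FPKM under both stresses. The group means thus stood in the order control, thermal, hypoxic and both stresses, and the 6 low-oxygen libraries lay above the 6 others. The log2 rise with low oxygen was 1.58 (SE 0.16, adjusted p = 0.0042). It was of like size at both temperatures, 1.68 (SE 0.23) at the control temperature and 1.47 (SE 0.23) at 26 °C, with an interaction of -0.21 (SE 0.32, adjusted p = 0.91). The average rise came to 1.66 when thermal replicate 2 was left out (adjusted p = 0.0019).

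AJAP15038 had nearly the same mean level, 562 FPKM, and a larger rise of 3.32 (SE 0.54, adjusted p = 0.021). It held 61.0, 48.1 and 39.5 FPKM in the controls, 93.9, 679 and 50.4 FPKM in heat alone, 997, 861 and 386 FPKM in the hypoxic libraries and 524, 1456 and 1551 FPKM under both stresses. Thermal replicate 2, at 679 FPKM, was inside the low-oxygen range, and the other 5 libraries of its side reached at most 93.9 FPKM. Without it the rise was 3.87 (SE 0.33, adjusted p = 0.0019). The call was lost without control replicate 2, thermal replicate 3, hypoxic replicate 1 or 2, or replicate 2 of both stresses (adjusted p from 0.052 to 0.059).

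Of the abundant features that fell, AJAP09892 went from between 419 and 792 FPKM to between 196 and 457 FPKM. The log2 change was -0.81 (SE 0.15, adjusted p = 0.039). The sides overlapped because the thermal libraries (637, 621 and 792 FPKM) exceeded the controls (425, 477 and 419 FPKM), and both stresses (457, 348 and 366 FPKM) exceeded the hypoxic group (323, 247 and 196 FPKM). Within each temperature the low-oxygen libraries were lower. Without thermal replicate 2 the change was -0.84 (adjusted p = 0.032), and the call held in 2 of 12 fits with a library left out. It was lost with median-of-ratios scaling (adjusted p = 0.060). AJAP25703 held from 179 to 441 FPKM outside low oxygen and from 69.4 to 261 FPKM in it. Its log2 change was -1.46 (SE 0.29, adjusted p = 0.044). Hypoxic replicate 3, at 261 FPKM, lay far above the other 5 low-oxygen libraries and above control replicate 3, and without it the change was -1.70 (adjusted p = 0.025). With thermal replicate 2 left out instead it was -1.32 (adjusted p = 0.049). The call held in 3 of 12 fits with a library left out and was lost with voom (adjusted p = 0.051).

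The number of calls moved with single libraries. Leaving out a control gave 80, 83 and 140 calls for replicates 1, 2 and 3, and leaving out a thermal library gave 148, 651 and 36. The hypoxic libraries gave 51, 35 and 123 in the same way, and the libraries of both stresses 373, 30 and 144. The features called without thermal replicate 2 (1.39% of those tested) included 270 of the 282 and numbered 344 higher and 307 lower. Voom, run on reads recovered from the FPKM values, called 185 features (0.396% of those tested), 105 higher and 80 lower, and shared 169 with the 282. With median-of-ratios scaling the calls were 192 higher and 123 lower, so the balance of rises and falls depended on the scaling. A fit without a trend of variance on level called 25, all among the 282, and a fit without temperature called 114. A model of 4 group means, which takes the interaction out of the error, called 413 (0.883%), with 278 of the 282 among them.

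A set of 23 features passed with all libraries and also in each of the 12 fits with a library left out, which is 0.0492% of those tested. It held 15 raised and 8 lowered features, 20 AJAP and 3 MSTRG, and 22 of the 23 passed voom as well. AJAP19978, AJAP07200 and AJAP15472 belong to it. The median size of change in the set was 2.14 and the smallest 1.24, and the median level was 44.1 FPKM. At 21 of the 23 the 6 low-oxygen libraries did not overlap the 6 others. Of all 282 called features 160 (56.7%) did not overlap, 83 of them raised and 77 lowered. Over the 46763 tested 1.17% did not overlap, with 0.55% higher and 0.616% lower in low oxygen. Within each temperature taken alone, 240 of the 282 did not overlap, against 2.63% of those tested. Without thermal replicate 2, 216 of the 282 (76.6%) did not overlap in 6 libraries against 5, and 1227 of those tested (2.62%). Calls and overlap come from the same values, so the 2 counts are not independent.

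**Figure D3:**
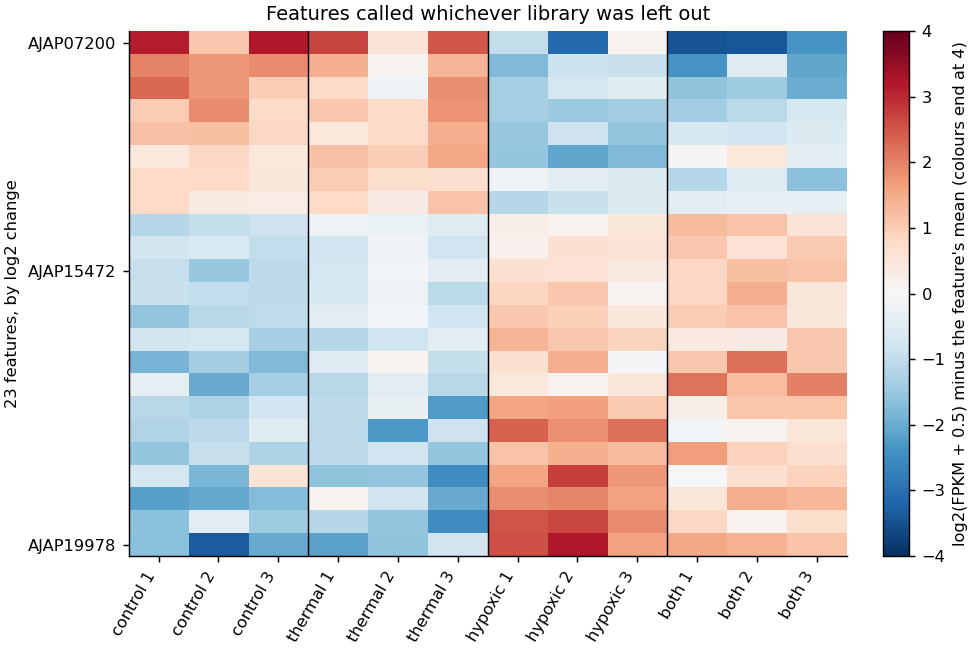
The 23 features called whichever library was left out (rows, ordered by log2 change) in the 12 libraries (columns), coloured by log2(FPKM + 0.5) minus the feature's mean. The upper 8 rows are mostly lower and the lower 15 rows mostly higher in the hypoxic and combined columns than in the control and thermal ones.

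A library left out of a fit gives values that the calls of that fit did not use. For each library, the features called without it were examined, and its level was placed between the 2 levels that the other 11 libraries predict for its temperature with and without low oxygen. Hypoxic replicate 1 lay on the low-oxygen side of the midpoint at 50 of 51 features (98.0%), and replicate 2 of both stresses at 27 of 30 (90.0%). Control replicate 1 lay on the other side at 71 of 80 (88.8%) and thermal replicate 3 at 31 of 36 (86.1%). In 11 libraries the share on the side of the library's own label was above that over all features tested, which ran from 49.1% to 57.6% in them. The exception was thermal replicate 2, with 217 of 651 (33.3%) against 47.5% over all features. Replicate 1 of both stresses came next, with 198 of 373 (53.1%) against 49.1%. With the 100 features of smallest p in each fit in place of the called ones, thermal replicate 2 lay on its own side at 27.0% of them, replicate 1 of both stresses at 57.0% and the other 10 libraries at 66.0% to 92.0%. The libraries thus did not carry the low-oxygen pattern to the same degree, and the cause of the deviation of thermal replicate 2 was not tested.

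**Figure D4:**
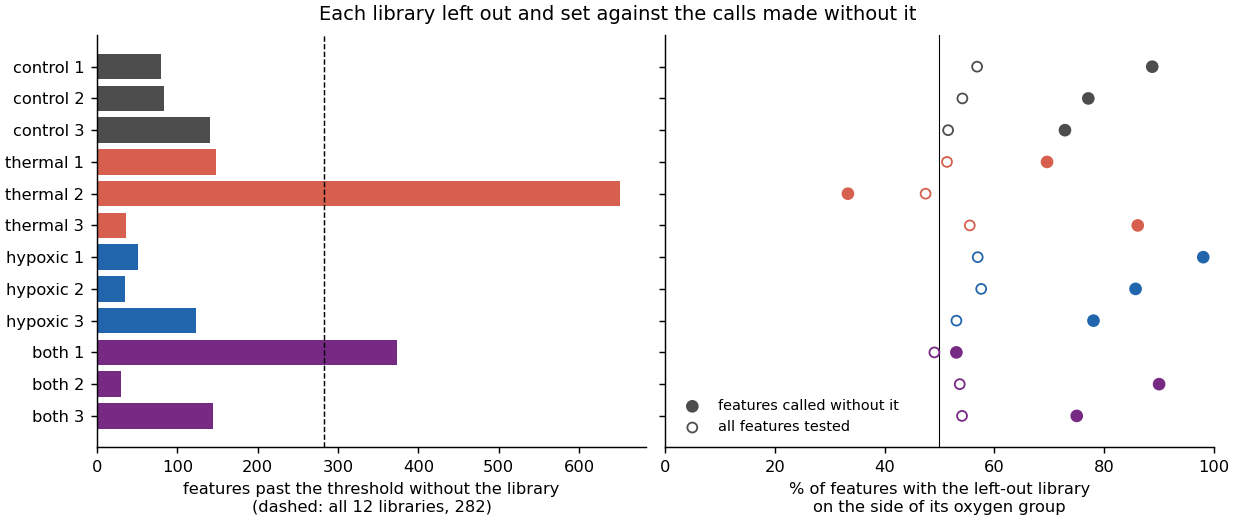
Left, number of features past the threshold when each library is left out, beside 282 with all libraries. Right, the percentage of those features (filled) and of all features tested (open) at which the left-out library lies on the side of its own oxygen group, with thermal replicate 2 at 33.3% and hypoxic replicate 1 at 98.0%.

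The average over temperature joins the change from control to hypoxic, at the control temperature, and the change from thermal to both stresses, at 26 °C. Features were called on the average of these, so their like direction at both temperatures follows in part from the choice. At an unadjusted p under 0.05 at each temperature, 282 of the 282 changed one way, against 1.91% of the features tested. The median change of the raised features was 1.67 at the control temperature and 1.16 at 26 °C. Of the 142 raised features 116 (81.7%) had the smaller change at 26 °C, and of the 140 lowered ones 93 did (66.4%). Over all features tested the share with the smaller change at 26 °C, in the direction of the average, was 54.7%. Without thermal replicate 2 the shares among these 282 were 74.6% of the raised and 51.4% of the lowered features, against 52.1% over all. The median change of the raised features at 26 °C was then 1.34. The gap between the raised features' medians was thus narrower without that library. For these lowered features the share then lay beside that over all features. The shares were 63.7% of the 344 raised and 55.7% of the 307 lowered features called in the fit without that library.

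The test of the difference itself, the interaction in the model of 4 group means, called 0 features in limma. Unadjusted, 3587 (7.67%) had a p under 0.05, and the lowest adjusted p was 0.35. Voom called 0 as well. Among the 282 called features 44 had an unadjusted p under 0.05, 36 of them with the smaller change at 26 °C, and the smallest adjusted p was 0.48. Over all features tested, 2143 of the 3587 had the smaller change at 26 °C. Without thermal replicate 2 the numbers were 38 and 25 among the 282, and 3873 and 2100 over all features tested. Taken alone, low oxygen at the control temperature called 191 features (0.408%) in that model, 87 of them among the 282. Low oxygen at 26 °C called 0, and 85 (0.182%) without thermal replicate 2, 28 of them among the 282. Each temperature rests on 3 libraries against 3, and these counts do not show that the changes differ between temperatures.

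**Figure D5:**
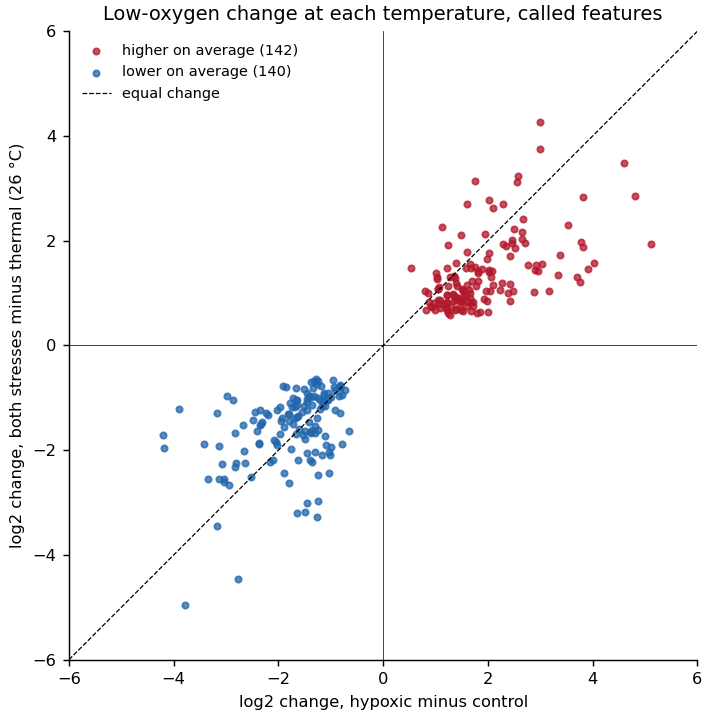
Low-oxygen change of the 282 called features at the control temperature (horizontal axis, hypoxic minus control) and at 26 °C (vertical axis, both stresses minus thermal), both on the log2 scale, with a dashed line of equal change. Most raised features (116 of 142) lie below the line, and the empty middle reflects the choice of called features.

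With all libraries, the 4 named features with the largest interaction estimates all had the smaller change at 26 °C. Without thermal replicate 2, MSTRG.81280 had a large interaction the other way, 2.71 (SE 0.62, adjusted p = 0.35). Its change was then 2.99 at the control temperature and 5.70 at 26 °C. AJAP25532 rose on average by 3.53 (SE 0.70, adjusted p = 0.044). It went from 1.31, 0.574 and 1.08 FPKM in the controls to 42.4, 119.8 and 24.6 FPKM in the hypoxic ones, and from 13.7, 6.59 and 0.638 FPKM in the thermal libraries to 9.57, 29.2 and 21.2 FPKM under both stresses. In warm water the groups overlapped, since thermal replicate 1 exceeded replicate 1 of both stresses. The change was 5.12 (SE 0.81) at the control temperature and 1.94 (SE 0.81) at 26 °C, an interaction of -3.18 (SE 1.15, adjusted p = 0.59). Leaving out thermal replicate 2 gave an average rise of 3.83 (adjusted p = 0.026). The call held in 3 of 12 fits with a library left out and was lost with voom (adjusted p = 0.060).

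AJAP01009 rose by 2.48 on average (SE 0.48, adjusted p = 0.042), a call that held in 2 of 12 fits with a library left out. It went from between 1.53 and 7.06 FPKM to between 4.76 and 48.6 FPKM. Its hypoxic libraries (48.6, 39.8 and 26.4 FPKM) lay above those of both stresses (4.76, 11.5 and 12.5 FPKM). The interaction was -2.55 (SE 0.70, adjusted p = 0.53), and without thermal replicate 2, the highest of its side at 7.06 FPKM, it was -2.10 (SE 0.67, adjusted p = 0.49), with an average rise of 2.82 (adjusted p = 0.0096).

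Of the features that fell, AJAP20562 was lowest in the hypoxic libraries (0.907, 0.861 and 2.62 FPKM) and higher under both stresses (11.0, 11.5 and 5.63 FPKM). Its control libraries held 32.1, 21.7 and 27.1 FPKM and its thermal libraries 14.2, 16.8 and 41.6 FPKM, so the 6 low-oxygen libraries lay below the 6 others. The average change was -2.56 (SE 0.48, adjusted p = 0.036), made up of -3.90 (SE 0.46) at the control temperature and -1.22 (SE 0.46) at 26 °C, an interaction of 2.68 (SE 0.64, adjusted p = 0.52). The average change was -2.79 without thermal replicate 2 (adjusted p = 0.018). The call held in 3 of 12 fits with a library left out and was lost with voom (adjusted p = 0.081).

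AJAP06951 differed from AJAP20562 in where the inequality lay. Its control libraries held 102, 30.1 and 44.1 FPKM, far above the rest. The thermal libraries were at 8.75, 5.43 and 3.27 FPKM, the hypoxic ones at 2.48, 3.99 and 1.17 FPKM and those of both stresses at 1.13, 1.04 and 1.85 FPKM. Thermal replicate 3 lay below hypoxic replicate 2, but within each temperature the groups were apart. The low-oxygen change was -2.96 on average (SE 0.49, adjusted p = 0.021), with -4.20 (SE 0.51) from control to hypoxic and -1.71 (SE 0.51) from thermal to both stresses. It was -3.10 without thermal replicate 2 (adjusted p = 0.015), and the call held in 8 of 12 fits with a library left out. None of these 4 interactions passed the adjustment.

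The same model gives the change with heat, averaged over oxygen. All 4 groups enter both this and the low-oxygen change, and the 2 share each feature's variance estimate. For AJAP19978 the low-oxygen change of 3.83 stood beside a heat change of -0.13 (SE 0.42, adjusted p = 0.94). For AJAP15472 the values were 1.58 with low oxygen and 0.64 with heat (SE 0.16, adjusted p = 0.11), and for AJAP09892 they were -0.81 and 0.63 (SE 0.15, adjusted p = 0.10). For AJAP06951 they were -2.96 and -1.89 (SE 0.49, adjusted p = 0.12). For the other 8 named features the heat change ran from -1.17 to 1.47 with adjusted p from 0.36 to 0.96, so no heat change of a named feature passed the threshold.

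The last comparison took 3 measures of whole libraries, each with a two-sided exact permutation test of the oxygen labels within each temperature (400 assignments, smallest possible p = 0.005). Fewer features reached 0.5 FPKM in low oxygen, 37694 ± 779.8 against 39020 ± 527 (SD, n = 6 per side, exact p = 0.015, adjusted over the 3 measures p = 0.045). The difference was -1237 at the control temperature and -1415 at 26 °C. The low-oxygen libraries ranged from 36721 to 38884 features and the others from 38077 to 39629, so the sides overlapped. The difference was -1336 without thermal replicate 2 (exact p = 0.020). At 0.1 FPKM it was -667 and missed the threshold (exact p = 0.13). The share of reads in MSTRG features was 25.4% ± 1.64 in low oxygen and 27.0% ± 2.79 elsewhere (exact p = 0.23, adjusted p = 0.34). The 100 most abundant features of each library took 27.3% ± 2.71 and 28.5% ± 2.86 of its summed FPKM (exact p = 0.39, adjusted p = 0.39). The median low-oxygen change over all features tested was -0.08 on the log2 scale.

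On the scale of all features, low oxygen took 13.3% of the sum of squares of the log2 values around each feature's mean, with 1 of 11 degrees of freedom. Heat took 12.2%, the interaction 9.56% and the spread between replicates within groups 64.9% with 8 degrees of freedom. Correlations between libraries ran from 0.849 to 0.894 within groups, from 0.835 to 0.883 between groups of the same oxygen level and from 0.809 to 0.881 between groups of different oxygen level. The last 2 ranges overlapped over most of their length.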

How the data were processed

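RNA was sequenced from 12 libraries of respiratory tree after removal of ribosomal RNA, with strand-marking library preparation, per the labels' protocols. The values are FPKM, deposited by the authors in 1 table with 1 column per library, matched to samples by title. The submitters' processing notes list DESeq 1.16, Cufflinks, TopHat2 2.0.12 and Bowtie2 2.2.3. What each did, the build, the annotation and whether counting used strand is not given in the sources used here. Without strand, antisense partners cannot be told apart, and near-identical copies may share reads.

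Library totals and whole reads were recovered from the FPKM values: with the totals found (20387909 to 28428042), 59494 of 59494 features gave whole reads within 0.001 reads, and with wrong totals 0% of 3000 did. Reads of the 6535 features present in fewer than 4 libraries are less certain. Counting carries no molecular identifiers.

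Features reaching 0.5 FPKM in 3 or more libraries were tested with limma 3.58.1 (R 4.3.3) on log2(FPKM + 0.5), with oxygen and temperature as terms and a trend of variance on level, Benjamini-Hochberg adjustment over all features tested and a threshold of 0.05. The interaction and the changes within each temperature came from a model of 4 group means. Named features averaged 5 FPKM or more on one of the sides. They are, per direction, the 2 with the largest change among those not overlapping within either temperature, the 2 most abundant and the 2 with the largest interaction. Alternatives were other pseudocounts, filters and scalings, other variance and design settings, voom on the recovered reads, and leaving out each library. The scripts were tested on simulated data. The comparison, lists and tests were chosen with earlier results of these data known. Permutation tests used scipy 1.17.1 under Python 3.11.15, tables pandas 2.3.3 and numpy 2.4.6, and plots matplotlib 3.10.9.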

Additional observations from a re-analysis of the deposited data

Results flagged for a closer look

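Within the 6 libraries of a side, 4 of 30 sides examined (12 named features and 3 library measures, 2 sides each) held a library whose gap to its nearest neighbour exceeded Dixon's 95% critical value. The gaps were taken on FPKM and not on log2 values, where they can be smaller. Chance flags about 1 in 20 groups of normally distributed values. The sides mix 2 temperatures and the features were chosen from these same data, so that rate need not hold here. Thermal replicate 2 was set apart at MSTRG.81280, with 15.9 FPKM against at most 1.21 FPKM in the other 5 libraries without low oxygen, and at AJAP15038, with 679 FPKM against at most 93.9 FPKM. Hypoxic replicate 3 was set apart at AJAP25703, with 261 FPKM against at most 121 FPKM in the other low-oxygen libraries. Hypoxic replicate 2 was set apart at AJAP25532, with 119.8 FPKM against at most 42.4 FPKM.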

How the results depend on the processing

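Against 282 calls with all libraries, there were 127 with no filter, 476 with a filter at 2 FPKM (278 of the 282 among them), 25 with no trend of variance, 114 with no temperature covariate, 185 with voom (169 shared) and 179 with replicate number as a block (157 shared). Other pseudocounts, scalings, robust estimation, 4 group means and a log2 change of at least 1 kept the count within 1.5 times. Leaving out a library gave 30 to 651 calls. The interaction count was 0 to 2 with a library left out, with the 2 called without control replicate 3, and 0 in every other setting. The replicate numbers are not stated to pair libraries: correlations of same-numbered deviations from group means ran from -0.080 to 0.086, and 4 of 12 libraries correlated best with their own number. With the replicate block the difference in the MSTRG share was again -1.63 percentage points, which the balanced design fixes. Flipping the signs of the same-numbered differences gave an exact p of 0.34, against 0.23 in the permutation test without the block. The difference in detected features was -667 at 0.1 FPKM. The share of the 100 most abundant features went from -1.20 to 0.47 percentage points when reads replaced FPKM (exact p = 0.80), and the cause was not tested.

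The 12 named features kept their direction in 288 of 288 settings and their threshold in 189. Of the 99 losses 66 were with a library left out. The features were chosen by calls on these same libraries, which every setting reuses, so the kept direction follows largely from that choice. AJAP19978 and AJAP15472 passed in all 24 settings each, AJAP07200 in 23 and AJAP09892 in 9.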

Other observations

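Called features with consecutive identifier numbers were compared, as numbers only, since the table gives no positions. Of 8349 consecutive MSTRG pairs tested, 45 had at least 1 member called. In 4 of these (8.89%) both were called, each pair in the same direction. Of all MSTRG features 0.278% were called, a share of single features and not of pairs with a called member. The 2 shares thus have unlike bases, and a matching share for pairs was not taken. The pair with the largest changes was MSTRG.81280, raised by 3.63 on the log2 scale, and MSTRG.81281, raised by 3.37 and chosen here after its values were seen. Their log2 values correlated at r = 0.99 over the 12 libraries, a description of features that may share reads. Of 16955 consecutive AJAP pairs tested, 318 had at least 1 member called. In 2 of these (0.629%) both were called, in opposite directions. Of all AJAP features 0.948% were called, again a share of single features, so 0.629% cannot be read as fewer than that rate would give. AJAP02469, lowered with a log2 change of -3.07, and AJAP02470, raised by 1.59, correlated at r = -0.85 over the 12 libraries, and the other pair at r = -0.83. All these pairs were picked by calls on the same libraries, so the sign of each r follows in part from that choice.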
